A study of Homo sapiens with 6 samples.

Results

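The clustered protocadherins are cell-surface proteins of the cadherin superfamily, encoded in 3 gene arrays on the long arm of human chromosome 5 that are named alpha, beta and gamma. The genes described here are the 39 protein-coding genes of these arrays among the 30270 genes of the count table, chosen by symbol and chromosome. No measured value entered that rule, but it was set with earlier results of these data known. Every row of the count table summed to 10 or more. The alpha array gave 6 of its 15 annotated genes, the beta array 11 of 16 and the gamma array all 22. The other 14 (PCDHA1, PCDHA2, PCDHA3, PCDHA5, PCDHA6, PCDHA7, PCDHA8, PCDHA9, PCDHAC2, PCDHB1, PCDHB4, PCDHB5, PCDHB6 and PCDHB7) were not analysed here.

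Ribosomal RNA-depleted total RNA was sequenced from HEK 293T, a line of human embryonic kidney cells immortalised with viral genes, in 3 wild-type (WT) libraries and in 3 libraries labelled as a TENT3A/B double knockout. TENT3A and TENT3B are other names of TUT4 and TUT7, terminal uridylyltransferases that extend the 3′ end of RNA with uridines, and the knockout is written ΔTUT4/7 here after the study. Both groups were kept in DMEM with fetal bovine serum and antibiotics and received no treatment. The knockout line was made earlier and given by another laboratory, so the 3 biological replicates of each group named in the labels are samples of 1 line, and a difference between the 2 lines cannot be told apart from a difference between 2 cultures of HEK 293T with separate histories.

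In neurons, each alpha or gamma mRNA begins with 1 large variable exon that carries its own promoter and encodes the extracellular and transmembrane parts. That exon is spliced to 3 constant exons shared by the whole array, which encode the common end of the cytoplasmic tail. A beta gene is a complete reading frame in a large exon with no constant exons. Choice among the promoters is known to be random from neuron to neuron for most members, to depend on CTCF and cohesin, and to be blocked by DNA methylation, while the C-type members (PCDHAC1, PCDHAC2, PCDHGC3, PCDHGC4 and PCDHGC5) are expressed more uniformly. The proteins bind identical partners on neighbouring cells, which lets neurites of 1 cell recognise and avoid each other.

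The constant exons set what a gene-level count of these genes can tell. In GENCODE release 44 (hg38) every alpha member shares the exons at chr5:140978949-140979007, chr5:140982475-140982563 and chr5:141009627-141012347, which hold 59, 89 and 2721 bases. Every gamma member shares exons of 59, 89 and 2029 bases at chr5:141494807-141494865, chr5:141505393-141505481 and chr5:141510947-141512975. No base of exon was shared by all beta genes. A read within a constant exon fits every member of its array, and the authors' model divided such reads among the members. The value of a single alpha or gamma member depends on that division. The gamma sum does not, as all 22 gamma members are listed. The alpha sum covers 6 of 15 annotated members, so any reads given to the others are missing from it. The sequences of the constant exon that follows the variable exon are shown because they are the part of the transcript that members have in common. Capitals mark the bases that alpha and gamma share at the same position, 39 of 59 or 66.1%.
Alpha constant exon (chr5:140978949-140979007, plus strand): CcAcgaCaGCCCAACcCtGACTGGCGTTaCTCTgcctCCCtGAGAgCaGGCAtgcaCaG
Gamma constant exon (chr5:141494807-141494865, plus strand): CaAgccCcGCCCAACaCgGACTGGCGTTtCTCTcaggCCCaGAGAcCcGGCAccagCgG

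What the members have each for themselves is a promoter. Most protocadherin promoters are known to hold a conserved sequence element with the core CGCT shortly before the start site. The letters CGCT, searched on the strand of the gene between 100 and 30 bases before the start, were found in 43 of the 47 annotated members with a RefSeq promoter sequence (GRCh38.p14), that is 91.5%, and in 21.6% of the 27326 RefSeq genes. The share was 92.3% in alpha, 85.7% in beta and 95% in gamma. PCDHA9, PCDHB5, PCDHB8 and PCDHGB2 had no match in this window, and PCDHA3, PCDHA13, PCDHB6, PCDHB11, PCDHGA12 and PCDHGC5 had no entry in the table. The result depends on the start site: PCDHGB2 holds CGCT 199 bases before its RefSeq start (position 141360136), which lies downstream of its GENCODE start (position 141359994). The 48 matches lay between 38 and 95 bases before the start, with a median of 57.5, counting from the first base of the match. The windows of the members with the highest mean level per kb of exon in their array in either group of libraries, and of the C-type genes that were called, are given with the matches in capitals, all on the plus strand. PCDHB11, which led beta in the libraries labelled ΔTUT4/7, has no entry.
PCDHA10 (chr5:140855797-140855867): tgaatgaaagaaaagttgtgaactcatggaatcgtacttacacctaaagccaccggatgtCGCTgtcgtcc
PCDHA11 (chr5:140868857-140868927): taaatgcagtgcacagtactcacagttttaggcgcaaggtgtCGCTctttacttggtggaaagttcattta
PCDHAC1 (chr5:140926199-140926269): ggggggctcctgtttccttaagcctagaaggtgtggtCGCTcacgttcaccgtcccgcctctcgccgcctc
PCDHB16 (chr5:141182287-141182357): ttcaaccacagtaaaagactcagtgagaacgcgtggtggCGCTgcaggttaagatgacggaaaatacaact
PCDHGA11 (chr5:141420951-141421021): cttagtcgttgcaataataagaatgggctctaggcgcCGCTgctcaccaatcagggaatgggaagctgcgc
PCDHGC3 (chr5:141475866-141475936): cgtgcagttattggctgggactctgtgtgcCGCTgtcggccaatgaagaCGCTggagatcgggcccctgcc
PCDHGC4 (chr5:141484930-141485000): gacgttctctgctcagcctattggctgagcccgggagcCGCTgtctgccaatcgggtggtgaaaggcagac

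All printed windows hold CGCT, at 40 bases before the start in PCDHA10, 58 in PCDHA11, 63 in PCDHAC1 and PCDHGA11, 61 in PCDHB16 and 62 in PCDHGC4. PCDHGC3 holds the letters at 70 and again at 51 bases before the start. The match is a description of the sequence and not a measured binding site. All these positions count from the RefSeq start. The windows of PCDHA11 and PCDHB16 lie inside the genes as counted, which start at positions 140868183 and 141181399. The window of PCDHGC4 ends just inside the counted gene, which starts at position 141484997.

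Library totals ran from 18757228 to 33148937 estimated counts, of which the 39 members together held between 399.808 and 1215.72 in a library. The RNA of the targeted genes moved in opposite directions. TUT7 was at 60.4, 62.6 and 64.8 CPM in WT and at 27.2, 25.2 and 26.5 CPM in the libraries labelled ΔTUT4/7. TUT4 was at 212, 216 and 206 CPM in WT and at 882, 920.4 and 917 CPM in the libraries labelled ΔTUT4/7. CPM here is the estimated count scaled to the TMM-adjusted library size. A gene-level RNA count does not show whether a gene product is lost, so these counts cannot decide whether the knockout label holds. Every direction below is that of the libraries labelled ΔTUT4/7 against WT. All 8 listed markers of HEK 293T were tested, of which 2 were higher (VIM and KRT18) and 6 lower, against 28.6% and 29.0% of all genes. NEFM, a neurofilament gene, was the most extreme, at 969 ± 123 CPM in WT and 0.0170 ± 0.0295 in the libraries labelled ΔTUT4/7 (SD, n = 3). VIM rose from 496 ± 22.9 to 1250 ± 5.78 CPM. The smallest fall was that of SALL1, from 52.5 ± 1.27 to 41.8 ± 2.32 CPM. Summed over 3 listed markers of differentiated neurons, the range was 2.72 to 3.04 CPM in WT and 9.52 to 10.3 in the libraries labelled ΔTUT4/7, with RBFOX3 and SYN1 higher and SNAP25 not called. For fibroblasts the sum of COL1A1 and COL3A1 was 19.4 to 22.4 and 6.75 to 8.27 CPM, both genes being lower. The listed leukocyte marker CD14 stayed at or below 0.305 CPM and the sum of the endothelial markers PECAM1 and VWF at or below 0.766 CPM. The part of these differences in the results on protocadherins was not tested. STMN2, PTPRC, CD3E, CDH5, COL1A2, DCN and LUM were not analysed here.

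Across the 3 arrays, the gamma sum fell and the alpha sum rose, and the small rise of the beta sum depended on the fit. Gamma protocadherin RNA was at 35.3, 34.0 and 35.0 CPM in WT replicates 1, 2 and 3 and at 14.5, 15.1 and 13.5 CPM in the libraries labelled ΔTUT4/7. The WT values lay close together and every one was above those of the other group. This was a fall of 1.27 ± 0.07 on the log2 scale (edgeR quasi-likelihood test with Benjamini-Hochberg adjustment, FDR 4.43e-12), or 2.42-fold. Alpha RNA was at 1.03, 0.408 and 0.283 CPM in WT and at 2.05, 2.28 and 1.30 CPM in the libraries labelled ΔTUT4/7. The groups did not overlap, although WT replicate 1 stood well above the other two of its group. The alpha sum was 3.48-fold higher (log2 1.80 ± 0.37, edgeR FDR 0.000407), and 2.40 on the log2 scale without WT replicate 1. It covers the listed alpha members only, so it is not free of the division of constant-exon reads. Its mean went from 0.575 to 1.88 CPM, mostly through PCDHA11 (0.0970 to 1.05 CPM) and PCDHAC1 (0 to 0.260 CPM). Of the other 4 listed alpha members, 2 had a higher mean in the libraries labelled ΔTUT4/7 and 2 a lower one. The alpha sum was not fitted without PCDHA11 or PCDHAC1, so it is no result apart from these genes.

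The beta sum was at 5.83, 4.74 and 4.34 CPM in WT and at 6.93, 6.56 and 5.58 CPM in the libraries labelled ΔTUT4/7. WT replicate 1 lay above the lowest library of the other group, so the groups overlapped. The difference of 0.38 ± 0.15 on the log2 scale passed at an edgeR FDR of 0.0342. It no longer passed with DESeq2 (0.37, FDR 0.0965), with library size alone (0.26, 0.142) or with upper-quartile scaling (0.28, 0.115). The same held without WT replicate 2 (0.35, 0.0895), WT replicate 3 (0.28, 0.142), the ΔTUT4/7-labelled replicate 1 (0.31, 0.142) or replicate 2 (0.36, 0.0818). In the table in which each array was 1 row, 28.6% of 23928 rows were called higher and 29.1% lower.

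**Figure D1:**
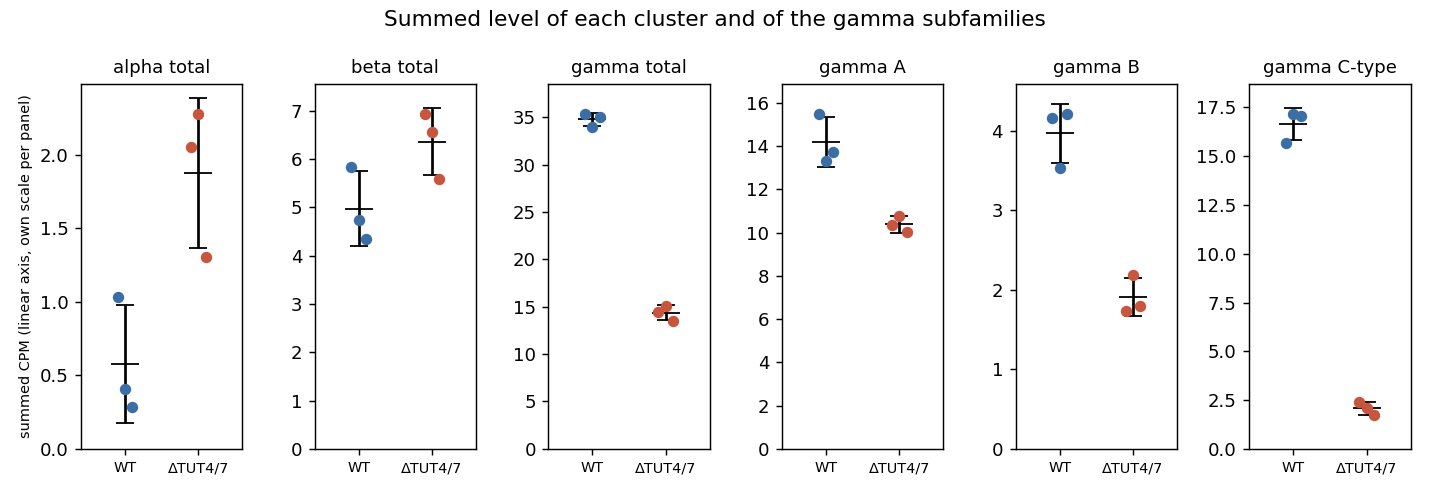
Summed CPM of the alpha, beta and gamma arrays and of the gamma A, gamma B and gamma C-type members, on linear axes from 0 with a scale of their own. Points are the 3 libraries of each group, the cross line is their mean and the bar 1 SD. Gamma C-type RNA shows the largest ratio between the groups, from a mean of 16.6 CPM in WT to 2.08 in the libraries labelled ΔTUT4/7.

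The make-up of protocadherin RNA also differed. Gamma transcripts held 86.3 ± 2.35% of all member counts in WT and 63.7 ± 2.34% in the libraries labelled ΔTUT4/7 (SD, n = 3). Beta transcripts went from 12.3 ± 1.44% to 28.1 ± 1.23% and alpha transcripts from 1.40 ± 0.921% to 8.22 ± 1.63%. The libraries of the groups did not overlap in any of these shares. In bulk RNA, fewer cells using a promoter and less RNA per cell that uses it cannot be told apart.

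Single members were tested where the largest rounded count over the 6 libraries was above 12, which 27 of the 39 passed. A member low in 1 group could pass only through the other, so the number of calls among them is a description. Of the 27, 4 were called higher (PCDHA11, PCDHAC1, PCDHB9 and PCDHB11) and 10 lower (PCDHB15, PCDHB16, PCDHGA7, PCDHGA8, PCDHGA11, PCDHGA12, PCDHGB2, PCDHGB7, PCDHGC3 and PCDHGC4), and 13 did not pass. That is 51.9%, against 57.7% of the 23952 genes tested (28.6% higher and 29.0% lower). Except for PCDHGA11, all 14 changed by 2-fold or more, a size that 5.90% of all genes reached upwards and 12.4% downwards. Most of the called members had few counts, where a small change can hardly pass, so these shares of all genes are no like comparison. The groups did not overlap for 16 of the 27, against 62.8% of all genes. The median log2 difference was -0.51 over the 27 and -0.02 over all genes. Most members were weakly expressed: the median of the mean count was 10.3 over the 39, and PCDHGA11, PCDHGC3 and PCDHGC4 alone had a mean count of 50 or more. Among the 8378 tested genes with a mean count under 50, 33.1% were called, 8.88% higher and 24.2% lower, with a median of -0.26.

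**Figure D2:**
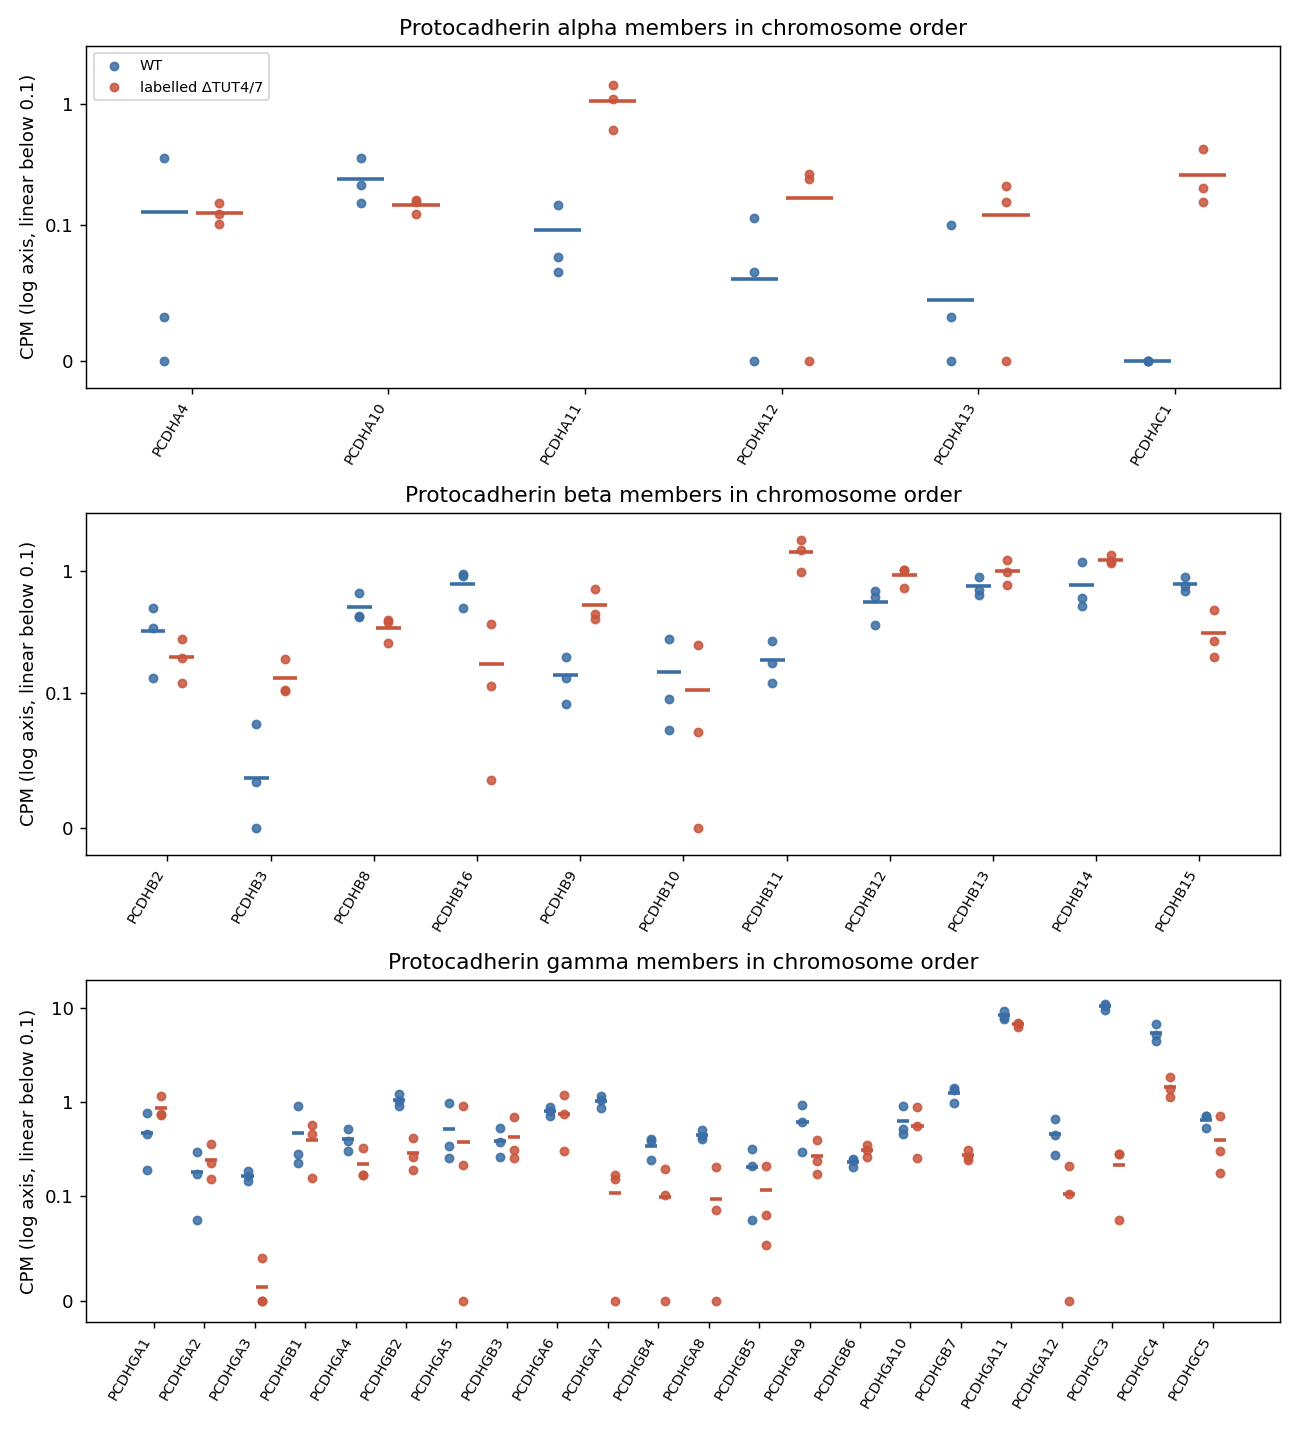
CPM of each of the 39 members in each library, in chromosome order within its array, on an axis that is logarithmic above 0.1 and linear below. Points are libraries and horizontal lines group means. PCDHGC3 drops from a mean of 10.5 CPM to 0.213 CPM while PCDHGA11, of a similar level in WT, stays at 6.74 CPM.

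The gamma array holds 12 A-type, 7 B-type and 3 C-type members, and the C-type members accounted for most of its fall. PCDHGC3, the C-type member known to bind the Wnt pathway scaffold Axin1, was at 10.7, 9.67 and 11.1 CPM in WT and at 0.281, 0.0778 and 0.281 CPM in the libraries labelled ΔTUT4/7. In estimated counts these were 209.87, 251.57 and 341.10 against 9.01, 1.51 and 5.51. Every WT library was far above every library of the other group, a fall of 5.43 ± 0.23 on the log2 scale (edgeR FDR 1.8e-14) or 43.1-fold. The gene spans chr5:141475947-141512977, and none of the 76-base windows of the exon sequence it does not share with other members occurred elsewhere in the family. PCDHGC4, which is known to be needed for the survival of cortical interneurons, was at 4.48, 6.77 and 5.24 CPM in WT and at 1.39, 1.86 and 1.14 CPM in the other group. The lowest WT library was above the highest library labelled ΔTUT4/7, and the fall was 1.92 ± 0.21 (FDR 7.5e-08). PCDHGC5, best known from the postnatal brain, was at 0.531, 0.715 and 0.716 CPM in WT and at 0.721, 0.175 and 0.306 CPM in the libraries labelled ΔTUT4/7, where replicate 1 was as high as WT. Its difference of -0.62 ± 0.46 did not pass (FDR 0.259), but without that replicate it was -1.49 and passed (0.0347).

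PCDHGA11, the last A-type member but 1 in the array, was at 9.45, 7.63 and 8.18 CPM in WT and at 6.97, 6.39 and 6.87 CPM in the libraries labelled ΔTUT4/7. The groups did not overlap, by a narrow margin. Its fall of 0.31 ± 0.12 passed with edgeR (FDR 0.0346) and not with DESeq2 (-0.32, 0.0928). It was also lost without WT replicate 1 (-0.23, FDR 0.142) and without the ΔTUT4/7-labelled replicate 1 (-0.34, 0.0631), replicate 2 (-0.28, 0.0977) or replicate 3 (-0.32, 0.0634). Per kb of exon, the WT order was PCDHGC3 at 1.93 ± 0.137, PCDHGA11 at 1.45 ± 0.160 and PCDHGC4 at 1.11 ± 0.235 CPM (SD, n = 3), the latter pair lying within their spread, and PCDHGB7 came next at 0.254 ± 0.0482. In the libraries labelled ΔTUT4/7, PCDHGA11 led with 1.16 ± 0.0534 CPM per kb, followed by PCDHGC4 with 0.295 ± 0.0734 and PCDHGA1 with 0.139 ± 0.0385.

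The gamma sum lost 20.4 CPM, of which PCDHGC3 made up 50.4%, PCDHGC4 19.7% and PCDHGA11 8.22%. The other 19 members together made up 21.7%, going from 10.4 ± 0.408 to 5.95 ± 0.760 CPM. By type, A members were at 14.2 ± 1.15 CPM in WT and 10.4 ± 0.388 in the libraries labelled ΔTUT4/7, B members at 3.96 ± 0.377 and 1.91 ± 0.244, and C-type members at 16.6 ± 0.821 and 2.08 ± 0.335. None of the 3 types overlapped between the groups.

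Among the weaker tested gamma members, PCDHGA7 had the lowest fitted log2 difference and went from 0.874, 1.05 and 1.18 CPM to 0, 0.155 and 0.171 CPM (-3.50 ± 0.58, edgeR FDR 2.24e-05). Its value was -2.71 without the ΔTUT4/7-labelled replicate 1. PCDHGB7 went from 0.989, 1.37 and 1.43 CPM to 0.265, 0.242 and 0.310 CPM (-2.23 ± 0.36, FDR 1.82e-05). PCDHGB2 went from 1.04, 0.906 and 1.22 CPM to 0.191, 0.413 and 0.261 CPM (-1.93 ± 0.40, FDR 0.000264). In all 3 genes every WT library was above every library labelled ΔTUT4/7.

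PCDHGA8 and PCDHGA12 rested on fewer counts, with mean counts of 7.19 and 7.09. PCDHGA8 was at 0.450 ± 0.0509 and 0.0973 ± 0.103 CPM (-1.85 ± 0.68, edgeR FDR 0.0239). That call was lost with DESeq2 (FDR 0.0598) and without the ΔTUT4/7-labelled replicate 2 (-1.39, FDR 0.0787) or 3 (-1.77, 0.0564), and the value was -3.02 without replicate 1. PCDHGA12 was at 0.464 ± 0.196 and 0.105 ± 0.105 CPM (-2.34 ± 0.78, FDR 0.0136). Without the ΔTUT4/7-labelled replicate 1 it was -1.56 and no longer passed (FDR 0.0813), and without replicate 2 it was -3.39.

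The other 9 tested gamma members (PCDHGA1, PCDHGA4, PCDHGA5, PCDHGA6, PCDHGA9, PCDHGA10, PCDHGB1, PCDHGB3 and PCDHGC5) did not pass, with log2 differences from -1.09 to 0.91 and FDR values from 0.0765 to 0.917. PCDHGA2, PCDHGA3, PCDHGB4, PCDHGB5 and PCDHGB6 had too few counts to be tested. Of these, PCDHGA3 was at 0.144, 0.166 and 0.186 CPM in WT and at 0.0407, 0 and 0 CPM in the libraries labelled ΔTUT4/7, and it was called lower when no count filter was used. In array order, 2 of the 8 tested among the first 11 gamma members were lower and 6 of the 9 tested among the last 11, which end with the C-type genes, where 29.0% of all genes and 24.2% of those with a mean count under 50 were lower. Of the 6, PCDHGA8, PCDHGA11 and PCDHGA12 each lost the call in an alternative given above. No gamma member was called higher with edgeR, DESeq2 or limma-voom. With edgeR, 28.6% of all genes and 8.88% of those with a mean count under 50 were so called. At an unadjusted p under 0.05, 1 gamma member was higher, PCDHGA1 (0.471 ± 0.286 CPM in WT and 0.879 ± 0.243 in the libraries labelled ΔTUT4/7), and without WT replicate 1 it passed (1.35, FDR 0.0207). PCDHGA9 passed as lower without WT replicate 3 (-1.46, FDR 0.0250).

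**Figure D3:**
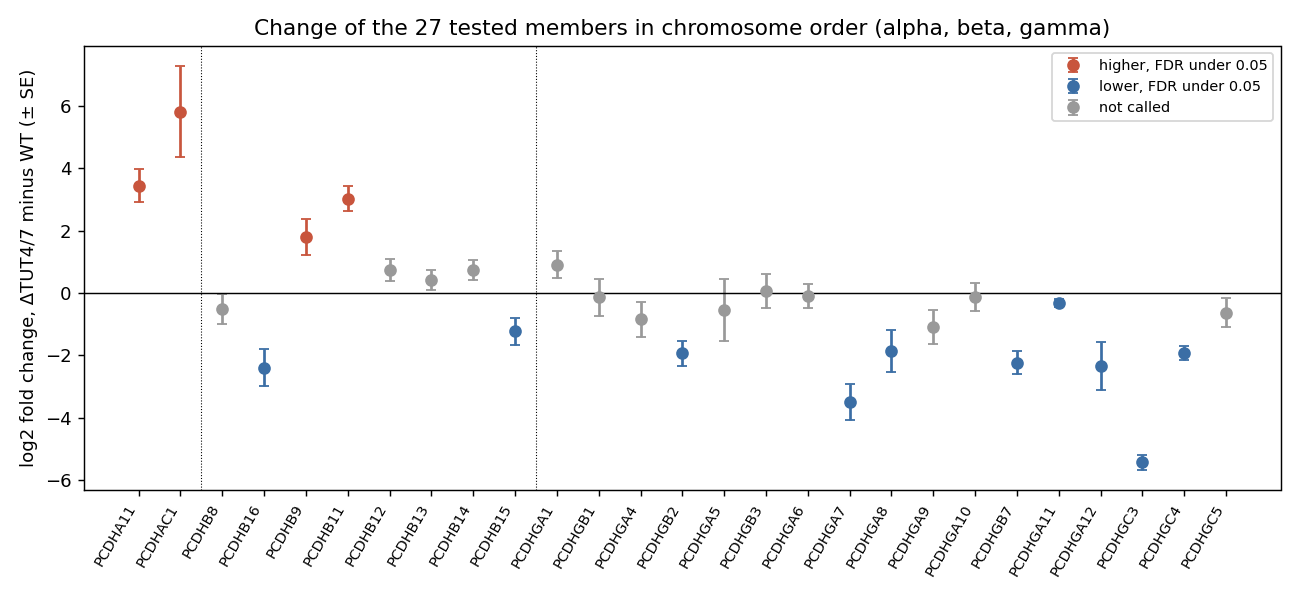
Log2 fold change of the 27 tested members, libraries labelled ΔTUT4/7 against WT, in chromosome order, with bars of 1 SE from the edgeR quasi-likelihood fit. Red marks genes called higher and blue genes called lower at FDR under 0.05, and dotted lines part the arrays. Calls upwards fall in alpha and beta and none in gamma; the fitted value of PCDHAC1 has no bound because WT had 0 counts.

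In the alpha array PCDHA11 and the C-type member PCDHAC1 were higher in the libraries labelled ΔTUT4/7, the only alpha members that passed the count filter. PCDHA11 was at 0.149, 0.0769 and 0.0652 CPM in WT and at 1.10, 1.44 and 0.611 CPM in the libraries labelled ΔTUT4/7. Every library of that group was several times above the highest WT library. The rise was 3.44 ± 0.53 on the log2 scale (edgeR FDR 9.27e-06) or 10.8-fold, and the WT libraries held 2.00 to 2.92 estimated counts each. PCDHAC1, the C-type gene that stands just upstream of PCDHAC2 near the end of the array, had 0 counts in each WT library and 13.54, 3 and 4 estimated counts in the other group, which is 0.422, 0.155 and 0.204 CPM. Taking 3 counts over the 3 WT libraries as the floor, it was at least 7.52-fold higher (edgeR FDR 0.00205). Floors cover counting error only. PCDHAC1 passed the count filter through the ΔTUT4/7-labelled replicate 1 alone and was not tested without it.

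PCDHA10 was at 0.360, 0.216 and 0.153 CPM in WT and at 0.162, 0.155 and 0.125 CPM in the libraries labelled ΔTUT4/7, overlapping ranges of a gene with too few counts for the test. PCDHA4, PCDHA12 and PCDHA13 were also below the filter, and all had at least 1 library at 0 counts. Per kb of exon, PCDHA10 at 0.0155 ± 0.00679 CPM and PCDHA11 at 0.0154 ± 0.00720 CPM did not differ beyond their spread in WT, while in the libraries labelled ΔTUT4/7 PCDHA11 at 0.167 ± 0.0665 CPM stood above PCDHAC1 at 0.0371 ± 0.0203. PCDHA10, PCDHA12 and PCDHA13 each have exons overlapped by an annotated antisense gene of its own, and as no strand setting is stated, the reads of the pair cannot be told apart. No such gene overlaps PCDHA11 or PCDHAC1.

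Of the 8 tested beta genes, 2 were higher and 2 lower, against 28.6% and 29.0% of all genes. All beta genes had a mean count under 50, and of the tested genes with such counts 8.88% were higher and 24.2% lower. PCDHB11 was at 0.265, 0.121 and 0.174 CPM in WT and at 1.79, 1.49 and 0.977 CPM in the libraries labelled ΔTUT4/7, well apart, and rose by 3.03 ± 0.41 on the log2 scale (edgeR FDR 1.59e-06) or 8.17-fold. PCDHB9 was at 0.131, 0.195 and 0.0913 CPM and at 0.401, 0.446 and 0.715 CPM (1.80 ± 0.58, FDR 0.0118). Its call was lost without the ΔTUT4/7-labelled replicate 3 (1.54, FDR 0.0643). The beta genes are products of repeated duplication: 14.2% of the 76-base exon windows of PCDHB9 occurred in another gene of the family, most often PCDHB10, and 9.26% of those of PCDHB11, most often PCDHB14, so reads there could be assigned to either.

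PCDHB16 was at 0.916, 0.497 and 0.940 CPM there and at 0.0352, 0.365 and 0.113 CPM in the libraries labelled ΔTUT4/7. The groups did not overlap, and the spread within the second was wide. The fall was 2.39 ± 0.60 (edgeR FDR 0.00186), and 1.74 without the ΔTUT4/7-labelled replicate 1 and 3.63 without replicate 2. PCDHB15, last in the array, went from 0.759, 0.892 and 0.684 CPM to 0.473, 0.263 and 0.197 CPM (-1.23 ± 0.42, FDR 0.0168). It did not pass with DESeq2 (FDR 0.0670) or without WT replicate 2 (-1.13, 0.0671), the ΔTUT4/7-labelled replicate 2 (-1.11, 0.0518) or replicate 3 (-1.02, 0.0608). The groups of PCDHB15 did not overlap.

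PCDHB8, PCDHB12, PCDHB13 and PCDHB14 did not pass, with log2 differences from -0.51 to 0.75 and FDR values from 0.0557 to 0.374. The value of PCDHB14, 0.74 ± 0.32, passed with limma-voom (0.84, FDR 0.0329) and without WT replicate 1 (1.12, FDR 0.00830). PCDHB8 shares 34.1% of its windows with other family genes, most often PCDHB13. PCDHB2, PCDHB3 and PCDHB10 had too few counts for the test. Antisense genes overlap exons of PCDHB2, PCDHB3, PCDHB10, PCDHB11 and PCDHB16. Per kb of exon, PCDHB16 at 0.204 ± 0.0649, PCDHB15 at 0.196 ± 0.0266, PCDHB8 at 0.183 ± 0.0507 and PCDHB14 at 0.173 ± 0.0824 CPM lay within their spread in WT. PCDHB16 was counted over a wider span (chr5:141181399-141186399) than the GENCODE gene (chr5:141182387-141186226) that gave its length. Its value per kb may thus be too high, and its place as WT leader is not settled. In the libraries labelled ΔTUT4/7 the order began with PCDHB11 at 0.341 ± 0.0990 and PCDHB14 at 0.281 ± 0.0236 CPM, again within their spread.

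Promoter choice was compared through the share of the array's estimated counts that each member held, a measure within a library that does not depend on scaling. It is a share of RNA, and promoter activity and RNA stability were not measured. In alpha and gamma it also depends on how the model divided reads of the constant exons. With 3 libraries against 3, the exact two-sided permutation test cannot give a p below 0.10, so no share could pass 0.05. In gamma, PCDHGC3 held 30.2 ± 1.65% in WT and 1.51 ± 0.865% in the libraries labelled ΔTUT4/7 (SD, n = 3, exact permutation p = 0.10). PCDHGA11 went the other way, from 24.2 ± 2.26% to 47.1 ± 4.28% (p = 0.10 by the same exact test), although its own level was lower. PCDHGC4 went from 15.9 ± 3.70% to 10.1 ± 2.00% (exact p = 0.10), and that difference of -5.72 percentage points was -3.69 without WT replicate 2. PCDHGC5 was at 1.88 ± 0.331% and 2.80 ± 1.96% (exact p = 0.70), its sign turning without the ΔTUT4/7-labelled replicate 1 (-0.171 points).

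By type, the gamma A members held 40.7 ± 2.67% in WT and 72.3 ± 1.41% in the libraries labelled ΔTUT4/7, and the C-type members 47.9 ± 3.12% and 14.4 ± 1.92% (exact permutation p = 0.10 for each). The B members held 11.4 ± 0.877% and 13.3 ± 1.26% (exact p = 0.20). A-type members held the largest part of the array in each library labelled ΔTUT4/7, and C-type members in each WT library, by a small margin in WT replicate 1.

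In alpha, PCDHA10 held 47.2 ± 10.7% in WT and 8.10 ± 1.43% in the libraries labelled ΔTUT4/7, and PCDHA11 18.8 ± 4.31% and 54.7 ± 8.31% (exact permutation p = 0.10 for each). PCDHAC1 went from 0% to 14.3 ± 6.98% (exact p = 0.10). These shares rest on 8.69 to 20.3 estimated counts per WT library and 25.5 to 65.8 in the other group, so a single read moves them by percentage points. The longer exons of PCDHA10 collect more reads per transcript: weighted per kb of exon, its difference of -39.2 points became -25.0, and -18.4 per kb of exon that no other member covers. In beta, PCDHB11 went from 3.70 ± 1.03% to 22.04 ± 4.24%, PCDHB16 from 15.96 ± 5.59% to 2.696 ± 2.59% and PCDHB15 from 15.9 ± 2.91% to 4.79 ± 1.78% (exact permutation p = 0.10 for each).

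**Figure D4:**
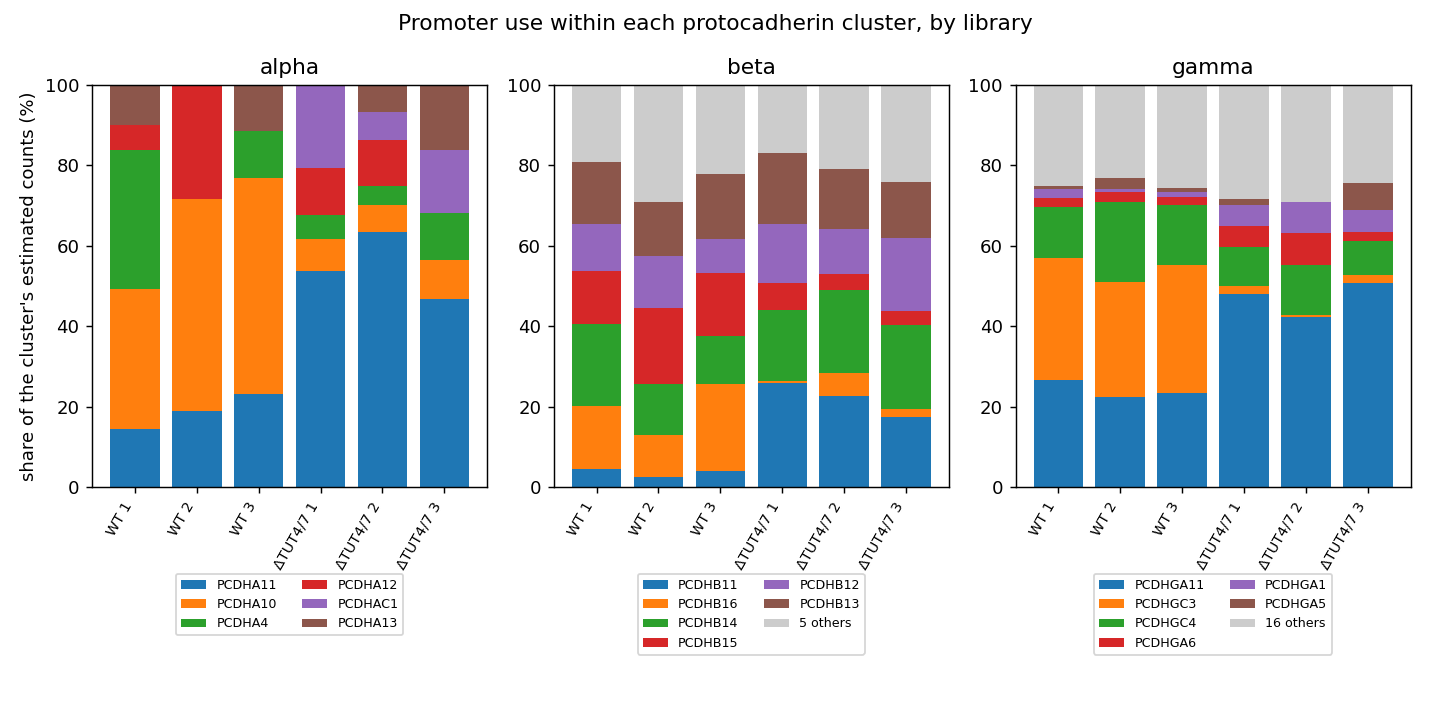
Share of each array's estimated counts held by its members, in percent, 1 stacked bar per library. The 6 members with the highest share in any library are coloured and the rest are grey. In gamma the band of PCDHGC3 shrinks from a mean of 30.2% in WT to 1.51% and that of PCDHGA11 widens from 24.2% to 47.1%.

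The spread of use over promoters was summarised as the effective number of promoters, the exponential of the Shannon entropy of the shares, which equals the number of members if all are used alike. For gamma it was 8.87, 8.71 and 8.81 in WT and 7.998, 8.31 and 7.49 in the libraries labelled ΔTUT4/7, out of 22 members, lower in each library of the second group (exact permutation p = 0.10, the smallest possible). Beta gave 8.50 ± 0.358 and 7.79 ± 0.505 of 11 (exact p = 0.20), with overlap. Alpha gave 3.36 ± 0.703 and 3.71 ± 0.367 of 6 (exact p = 0.50), and its difference of 0.35 turned to -0.54 per kb of all exons and -0.63 per kb of own exons.

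Base composition differed among the promoters. In the 250 bases before the start, PCDHGC3 had 60% G and C with 15 CpG, PCDHGC4 57.6% with 13, and PCDHAC1 63.2% with 18. The 9 members called lower that had a RefSeq promoter ran from 32.0% to 60% (median 43.6%), the 12 not called from 30.0% to 44.8% (median 35.0%) and the 3 called higher from 36.0% to 63.2% (median 40.0%). PCDHAC1 and PCDHGC3, both rich in CpG, lay in opposite directions.

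Genes known to control the clusters moved in both directions, none of them by a full 2-fold (TRIM28 reached 1.99-fold). Of 27 listed regulators, all tested, 14 were higher and 8 lower, against 28.6% and 29.0% of all genes, with a median log2 difference of 0.15. CTCF, whose binding in promoters and enhancers sets the loops of the arrays, was at 94.2, 91.6 and 96.6 CPM in WT and at 144, 155 and 145 CPM in the libraries labelled ΔTUT4/7, a clear gap (0.65 ± 0.05, edgeR FDR 1.41e-10). RAD21, a subunit of cohesin, was at 394, 397 and 408 CPM in WT and at 359, 369 and 372 CPM in the libraries labelled ΔTUT4/7 (-0.12 ± 0.04, FDR 0.0142), a call lost without the ΔTUT4/7-labelled replicate 1 (-0.11, 0.0888). SMCHD1, known to silence protocadherin genes, was at 188.5, 199.9 and 189.6 CPM in WT and at 122, 133 and 133 CPM in the other group (-0.58 ± 0.05, FDR 1.2e-09).

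DNMT3B, a de novo DNA methyltransferase, was at 28.7, 24.9 and 24.7 CPM in WT and at 40.2, 39.0 and 38.1 CPM in the libraries labelled ΔTUT4/7 (0.59 ± 0.07, edgeR FDR 2.89e-07). TRIM28, the corepressor of KRAB zinc finger proteins, and TET2, an enzyme that oxidises methylated cytosine, had the smallest p-values of the list. TRIM28 was at 227, 208 and 201 CPM in WT and at 442, 404 and 422 CPM in the libraries labelled ΔTUT4/7 (1.00 ± 0.05, FDR 3.97e-13). TET2 went the other way, from 87.9, 88.2 and 86.9 CPM to 43.1, 45.0 and 45.4 CPM (-0.98 ± 0.05, FDR 8.69e-13). The 2 groups did not overlap for any of these 3 genes. Whether these differences had a part in those of the protocadherins was not tested.

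Of 21 listed partners of the cytoplasmic tails and processing enzymes, all tested, 8 were higher and 6 lower (median 0.02). The shares of all genes were 28.6% and 29.0%, again no like comparison, as each partner had a mean count of 165 or more. Only PTK2B changed by more than 2-fold, from 10.0 ± 0.516 CPM in WT to 3.11 ± 0.793 CPM in the libraries labelled ΔTUT4/7 (-1.67 ± 0.15, edgeR FDR 6.35e-09). AXIN1 was at 28.8, 26.1 and 29.8 CPM in WT and at 49.7, 46.7 and 46.1 CPM in the libraries labelled ΔTUT4/7 (0.75 ± 0.07, edgeR FDR 3.26e-09). ABI1, a subunit of the WAVE complex that drives actin branching, was at 49.7 ± 1.14 CPM in WT and 76.8 ± 4.16 CPM in the other group (SD, n = 3), a difference of 0.63 ± 0.06 (FDR 3.31e-09). Neither overlapped between the groups. Of the 11 protocadherin genes outside the clusters that were tested, 8 were lower and the others did not pass, with a median of -0.89, against 29.0% of all genes called lower.

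Genes around the arrays gave a local background. Within 1 Mb of the members and between them, 45 other genes were tested, of which 16 were higher and 12 lower (median 0.08), against 28.6% and 29.0% of all genes. GNPDA1, an enzyme of glucosamine metabolism, was at 37.3, 32.8 and 32.0 CPM in WT and at 64.7, 66.3 and 69.0 CPM in the libraries labelled ΔTUT4/7 (0.97 ± 0.06, edgeR FDR 2.38e-11). ARAP3, a GTPase-activating protein, went from 8.91, 10.6 and 11.9 CPM to 3.18, 2.27 and 2.91 CPM (-1.90 ± 0.15, FDR 6.87e-10). TAF7, a TFIID subunit encoded between the beta and gamma arrays, was at 77.5, 79.0 and 78.9 CPM in WT and at 109.3, 110.0 and 105.5 CPM in the other group (0.46 ± 0.05, FDR 2.65e-08). Of the 5 tested neighbours between the first and last member, TAF7 was higher and 2 were lower (SLC25A2 and AC005618.1), and all 3 lie between the beta and gamma arrays. Of 4 protocadherin pseudogenes, PCDHGB8P alone was tested, with a log2 difference of -0.45 that did not pass (FDR 0.519).

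**Figure D5:**
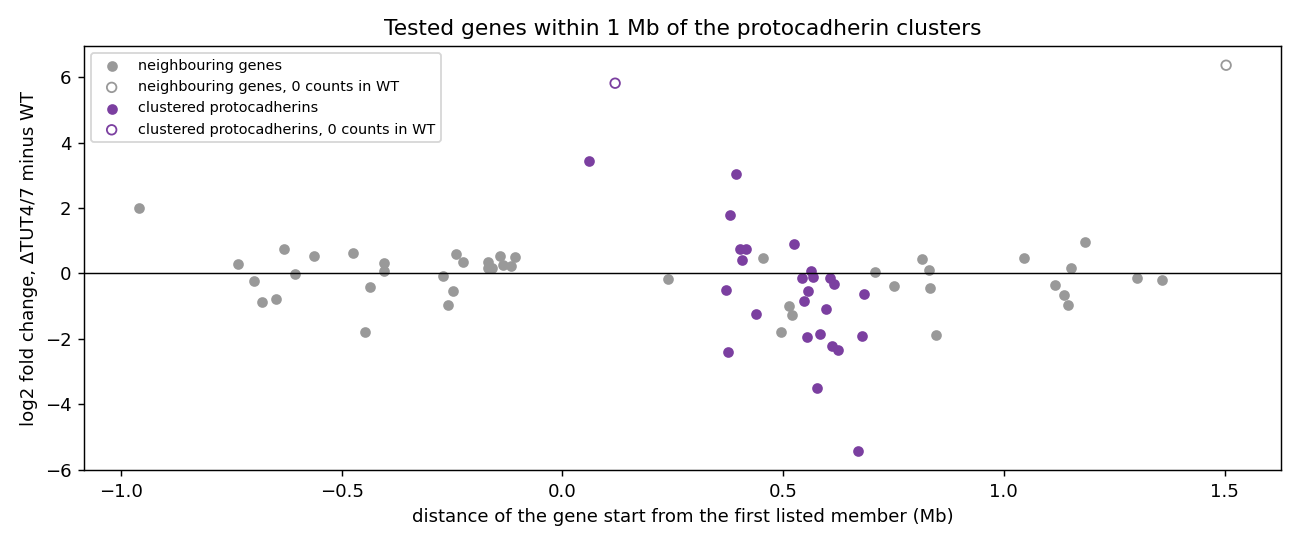
Log2 fold change of the tested genes within 1 Mb of the members, against the distance of the gene start from the first member in Mb. Purple points are clustered protocadherins and grey points other genes, and open points have 0 counts in WT, so their fitted value has no bound. Neighbours scatter around a median of 0.08, and the gamma members at the right of the purple run lie mostly below 0.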

How the data were processed

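Paired-end reads (76 bases) of 3 WT and 3 ΔTUT4/7-labelled HEK 293T libraries were aligned by the authors to hg38 with STAR 2.7.3a, and genes were quantified in Partek Flow 10.0.22. The authors deposited the resulting estimated counts per Ensembl gene, which need not be whole because reads that fit several genes are divided by an expectation-maximisation model. Every row of the table summed to 10 or more. A second deposited table holds the authors' own comparison (p-values, FDR, ratios, fold changes and least-squares means) and was not used. No strand setting was found.

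Estimated counts were rounded, genes with a largest count above 12 were kept (23952), and edgeR 4.0.16 (R 4.3.3; TMM factors, glmQLFit with robust estimation, glmQLFTest, group only) was run over all of them with Benjamini-Hochberg adjustment, calls being made at FDR under 0.05. Errors of log2 changes are standard errors. Array sums were fitted in the same table with the members replaced by 3 rows (23928 rows). Shares used unrounded counts. The common biological coefficient of variation was 6.44%. The steps were tested on simulated data. Gene ends are printed 1 base below the deposited stop, which lay past the annotated end. Exons came from GENCODE release 44 and promoters from RefSeq. The GENCODE start was that of the deposited gene in 5 of 6 alpha, 9 of 11 beta and 16 of 22 gamma members.

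Groups were taken from the labels. Libraries of the same group differed by more than sampling noise (chi-square per degree of freedom of 2.43 or more, and 71.7 or more across groups), so none was a copy of another. The members, the lists of regulators, partners and markers, and the rule for named genes (members with a mean count of 50 or more, leading and C-type members, other called members, TUT4 and TUT7, CTCF, RAD21, SMCHD1, DNMT3B, TAF7 and the 2 smallest p of each list) were chosen with earlier results of these data known. Alternatives were RLE, upper-quartile and library-size scaling, DESeq2 1.42.0, limma-voom (limma 3.58.1), other count filters, unrounded counts, a replicate block, per-kb shares, pseudogenes in the array total and each library left out.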

Additional observations from a re-analysis of the deposited data

How the results depend on the processing

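The gamma sum was called lower (log2 -1.39 to -0.78) and the alpha sum higher (1.44 to 2.40) in every alternative that gave a value, including the gamma sum without PCDHGC3 and without the 3 members of mean count 50 or more, both added after the data were seen. The beta sum (0.38, FDR 0.0342) missed the threshold with DESeq2 (0.37, 0.0965), library size alone (0.26, 0.142), upper-quartile scaling (0.28, 0.115) and a mean count of 50 or more (0.31, 0.0656), and ranged from 0.28 to 0.49 with each library left out. With the filter at a mean count of 50 or more, 0 members were higher and 3 lower, since only 3 were then tested, and the alpha sum gave no value. The difference in effective promoters of alpha was -0.54 per kb of all exons and -0.63 per kb of own exons against 0.35, and that of the PCDHA10 share -25.0 and -18.4 against -39.2 points. No called value changed sign. Among members that were not called, PCDHGB3 (0.07) turned with library size alone (-0.038), upper-quartile scaling (-0.025) and limma-voom (-0.070), and ranged from -0.50 to 0.40 with each library left out. PCDHGB1 turned with limma-voom (0.062), and the signs of PCDHGB1, PCDHGA5, PCDHGA6 and PCDHGA10 also changed with a library left out (ranges -0.50 to 0.68, -1.99 to 0.30, -0.52 to 0.23 and -0.51 to 0.19). With each library left out, 3 to 6 members were higher and 7 to 9 lower, and limma-voom also called PCDHB14 higher. Library size alone and upper-quartile scaling moved the median of all genes from -0.02 to -0.13 and -0.12. Single members with few counts are limited by depth.

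The replicate numbers of the labels gave correlations of 0.0658, 0.0129 and -0.0424 between same-numbered libraries (deviations from the group means over 15574 genes), so the numbers were not taken to pair the samples. With the replicate block, 4 members were higher and 10 lower, as without it, and the array sums were 1.78 (alpha), 0.36 (beta, FDR 0.0373) and -1.28 (gamma). Over all genes the block gave 6832 higher and 6846 lower calls against 6855 and 6958.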
